A study of Mus musculus with 6 samples.

Results

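The Ifi200 family was taken as 6 gene names of the array, IFI202B, IFI203, IFI204, IFI205, MNDA and AIM2, of 30854 names in all. Every probe that carries one of these names was used, which gave 12 of the 45281 probes of the array: 3 for IFI202B, 1 for IFI203, 2 for IFI204, 3 for IFI205, 1 for MNDA and 2 for AIM2. The name MNDA is an older name of the mouse gene now called Ifi211, and the other 5 names are current symbols. Basal RNA was compared between 2 mouse colorectal cancer lines. MC38r, the resistant line, came from continuous exposure of cells to EPA (eicosapentaenoic acid, a marine omega-3 fatty acid), after which the IC50 for EPA was 6-fold higher, and MC38 is the EPA-sensitive line. Both lines were grown in RPMI medium with 10% foetal calf serum to 70% confluence. Each line was measured on 3 Illumina bead arrays.

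MC38 is a widely used colon tumour line that was raised in C57BL/6 mice. The labels do not say whether MC38r is a single clone, nor whether the 3 arrays of a line came from separate cultures, so the p-values measure a spread that may be technical. With 1 line of each kind, what goes with resistance and what merely differs between the lines cannot be told apart. All 6 arrays lay on 1 chip and the lines shared no position on it, so that position and line cannot be told apart either. The MC38r arrays had 28.97% to 30.52% of their probes above background and the MC38 arrays 28.35% to 30.14%, with a median of 44 beads behind a probe. The housekeeping control signal was lower in MC38r (10450 ± 205, SD, n = 3) than in MC38 (12180 ± 654). Of 11 epithelial and colorectal markers, Cdx2 alone could be tested, and 9, among them Epcam, Cdh1 and Krt18, were above background on no array of either line.

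The Ifi200 proteins, also called HIN-200 or PYHIN proteins, are interferon-inducible and carry DNA-binding HIN domains, mostly joined to a pyrin domain through which they contact other pyrin proteins. Aim2 senses double-stranded DNA in the cytosol and recruits the adaptor Pycard (ASC) and caspase-1 into an inflammasome, which matures interleukin-1β and interleukin-18 and opens the membrane pore protein gasdermin D. The mouse protein p202, encoded by Ifi202b, lacks a pyrin domain, binds DNA and restrains Aim2, and its level is known to differ widely between mouse strains. The mouse protein p204, encoded by Ifi204, takes part in DNA sensing and in cell differentiation. The genes lie side by side in a cluster on mouse chromosome 1 and are closely related in sequence.

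In MC38r cells Ifi202b was high and Aim2 was at background, whereas in MC38 cells Ifi202b was at background and Aim2 was just above it. In bulk RNA, fewer cells with a transcript and less of it per cell cannot be told apart. Both Aim2 probes fell, by at least 1.26-fold and at least 1.19-fold, and 2 of the 3 Ifi202b probes rose, by at least 33.5-fold and at least 10.7-fold. The other 8 probes, which include all those of Ifi203, Ifi204, Ifi205 and Ifi211, were above background on no array. Probes were tested where the detection p-value was under 0.01 on at least 3 of the 6 arrays. This left 4 of the 12 family probes, for 2 of the 6 genes, and each was above background on every array of the line where it was higher and on none of the other, so that passing the filter already required a difference. All 4 passed the limma test at an adjusted p under 0.05 (Benjamini-Hochberg over all tested probes). Of the 13990 probes tested, 55.1% passed, 28.1% higher and 27% lower in MC38r, and 61.5% had arrays that did not overlap between the lines. Because of the filter, nothing more is read from the count of family probes that passed. Over all 45281 probes, 1.36% were above background on the 3 MC38r arrays and on no MC38 array, and 1.46% the other way round. The family counts were 2 of 12 probes in each of these directions. Both probes of the first count read Ifi202b and both of the second read Aim2. Each count therefore comes from a single gene, and nothing more is read from it either.

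**Figure D1:**
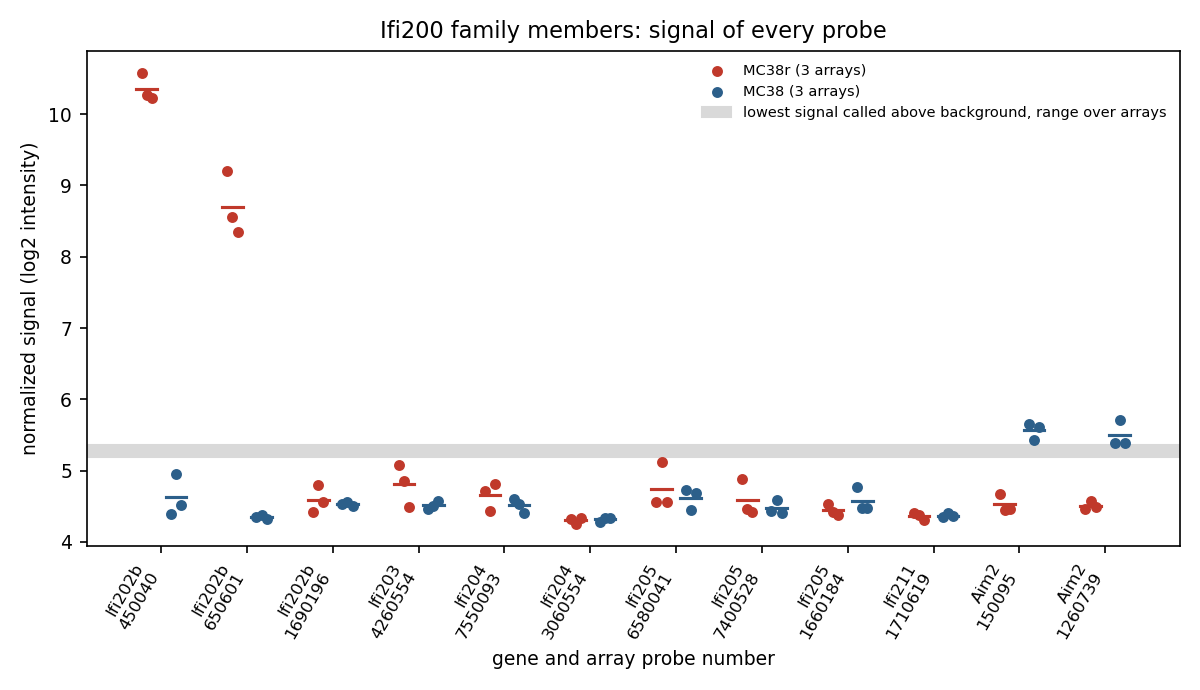
Normalized signal (log2 intensity, vertical axis) of the 12 probes of the 6 family genes, by gene and array probe number, with the 3 MC38r arrays left of the 3 MC38 arrays of each probe; bars are means and the grey band spans the dimmest detected signals of the 6 arrays. Only the first 2 Ifi202b probes lie above the band in MC38r, at 8.35 to 10.57, and only the Aim2 probes lie above it in MC38, at 5.38 to 5.71.

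Ifi202b, the gene of p202, was read by 3 probes. Probe 450040 had deposited, background-subtracted intensities of 1507.5, 1215.5 and 1178.2 on the 3 MC38r arrays, against -6.6, 14.3 and -0.1 on the 3 MC38 arrays. The MC38 values scatter around 0, the level of the negative controls, and no MC38 array came near any MC38r array. The smallest detection p-value of this probe in MC38 was 0.0598. After normalization its log2 signals were 10.57, 10.27 and 10.22 in MC38r (mean 10.35 ± 0.19, SD, n = 3) and 4.40, 4.96 and 4.52 in MC38 (mean 4.62 ± 0.29, n = 3). The fitted log2 difference of MC38r minus MC38 was 5.73 (SE 0.18, 95% interval 5.33 to 6.13, limma adjusted p = 1.6e-08). Because MC38 gives only a bound, the change is stated as at least 33.5-fold, taken against the dimmest detected signal of each MC38 array (mean 5.29 on the log2 scale).

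Probe 650601 of the same gene had deposited intensities of 572.1, 362.6 and 309.9 in MC38r, against -10, -7.4 and -12.3 in MC38. Its normalized log2 signals were 9.20, 8.56 and 8.35 in MC38r (mean 8.70 ± 0.44, SD, n = 3) and 4.35, 4.38 and 4.32 in MC38 (mean 4.35 ± 0.032). MC38r replicate 1 was the highest array for both of these probes, and the spread in MC38r was wider for probe 650601. The log2 difference was 4.35 (SE 0.21, 95% interval 3.89 to 4.82, limma adjusted p = 2.2e-07), a rise of at least 10.7-fold. The remaining probe, 1690196, was at background on all 6 arrays, with deposited intensities of -5, 10 and 1.5 in MC38r and 0.8, 1.6 and -0.6 in MC38. The 3 probes of Ifi202b therefore disagree: 2 rose and 1 showed no signal in either line (4.59 ± 0.19 in MC38r and 4.54 ± 0.026 in MC38). With an offset of 50 in place of 16 in the background correction, the log2 differences of the rising probes were 4.51 and 3.05, and both still passed. Which transcript or exon each probe reads is not stated in the tables used here.

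Aim2, the DNA sensor of the family, was read by 2 probes whose values moved the other way. Probe 150095 had deposited intensities of 5.7, -3.2 and -2.8 in MC38r, against 34.9, 27.5 and 33.4 in MC38. Detection p-values were 0.23 or more on the MC38r arrays and at most 0.00214 on the MC38 arrays, and the arrays of the lines did not overlap. The normalized log2 signal was 4.53 ± 0.12 in MC38r and 5.57 ± 0.12 in MC38 (SD, n = 3 each), a difference of -1.04 (SE 0.13, 95% interval -1.35 to -0.74, limma adjusted p = 0.00016). Probe 1260739 had deposited intensities of -2.8, 2.2 and -1.1 in MC38r, against 26, 36.6 and 26.2 in MC38. Its normalized log2 signal was 4.51 ± 0.056 in MC38r and 5.49 ± 0.19 in MC38, a difference of -0.98 (SE 0.14, 95% interval -1.30 to -0.67, limma adjusted p = 0.00028). The fitted differences of the 2 probes were close, but MC38r was at background for both, so their size depends on the offset. MC38 signals stood only slightly above the dimmest detected signal of an array (5.19 to 5.36 over the 6 arrays), which is why the bounds are small, at least 1.26-fold lower for probe 150095 and at least 1.19-fold lower for probe 1260739. With an offset of 50 the log2 differences were -0.51 and -0.48, and both still passed.

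The genes Ifi203, Ifi204, Ifi205 and Ifi211 gave no usable signal. Together with probe 1690196 of Ifi202b, their probes had normalized log2 signals between 4.26 and 5.12 and deposited intensities between -19.4 and 18.6 over all 6 arrays. The arrays of the lines overlapped for all 8 probes (over all 45281 probes 27.9% did not overlap), and the mean differences lay between -0.13 and 0.29. These probes did not pass the filter, and both lines give only a bound for them. The lowest detection p-value among them was 0.0203, above the limit of 0.01.

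Ifi203, whose protein carries both a pyrin and a HIN domain, had deposited intensities of 17.5, 11.4 and -1.4 in MC38r, against -3, -1 and 2.4 in MC38. MC38r replicates 1 and 2 were above every MC38 array and replicate 3 was within their range. Ifi204, the gene of p204, had mean log2 signals of 4.65 ± 0.2 in MC38r and 4.51 ± 0.1 in MC38 by probe 7550093, and of 4.30 ± 0.042 and 4.32 ± 0.032 by probe 3060554. For Ifi205, whose protein has been tied to adipocyte differentiation in mice, the 3 probes averaged 4.75, 4.59 and 4.44 in MC38r and 4.62, 4.48 and 4.57 in MC38. Ifi211 averaged 4.37 ± 0.048 in MC38r and 4.37 ± 0.033 in MC38. These values do not show that the genes are silent, only that no transcript was detectable with these probes. When the filter was dropped and all 45281 probes were fitted, the same 4 family probes passed and the others had limma adjusted p-values between 0.31 and 0.99.

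The authors' deposited table, which compares the lines gene by gene and whose test is not stated, lists IFI202B with a ratio of 19.7 for MC38r over MC38, an unadjusted p of 0.0103 and an adjusted p of 0.1053. For AIM2 the authors' deposited table gives a ratio of 0.513 and an adjusted p of 0.0114. The gene-level value of Ifi202b averages all 3 probes, including the probe at background: the mean of its probes was 691.5, 529.4 and 496.5 in the MC38r arrays and -5.27, 2.83 and -4.33 in the MC38 arrays. These are the signals in the deposited gene table. The deposited series values, which average 607.3 in MC38r and 30.9 in MC38 for this gene, have the ratio that the authors' deposited table gives. For Aim2 the series values average 32.7 in MC38r and 63.7 in MC38. The MC38 signals of Ifi202b are at background on every array, so the size of the IFI202B ratio rests on the level at which background stands in the series values. The same holds for the AIM2 ratio, since the MC38r signals of Aim2 are at background on every array.

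The cluster holds 14 genes of the family in the RefSeq annotation of GRCm38.p6, in the order Aim2, Ifi206, Ifi214, Ifi213, Ifi209, Ifi208, Ifi207, Ifi204, Ifi203-ps, Mndal, Ifi211, Ifi203, Ifi202b and Ifi205. Of the 8 that are not among the 6 genes above, 4 had a probe under an older or provisional array name and 3 were tested: 2 rose and 1 fell. The 2 that rose, Mndal and Ifi207, were above background on no MC38 array, so for them too passing the filter already required a difference. Over all genes, with the brightest tested probe standing for each, 56.1% of 9799 passed, and 28.6% rose and 27.4% fell. The 3 tested genes are too few to set against those shares.

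Mndal, a close relative of Ifi203, was read by probe 7380324 (array name LOC100040462), with deposited intensities of 576.5, 584.5 and 535.1 in MC38r, against -9.8, 1.2 and -6.8 in MC38. Its normalized log2 signal was 9.18 ± 0.067 in MC38r and 4.43 ± 0.1 in MC38 (SD, n = 3 each), a difference of 4.75 (SE 0.13, limma adjusted p = 7.6e-09) and a rise of at least 14.9-fold. The arrays of MC38r lay close together and far from all MC38 arrays. The second Mndal probe, 4210270, was at background in both lines (4.29 ± 0.029 in MC38r and 4.30 ± 0.014 in MC38), so that the probes of this gene disagree in the same way as those of Ifi202b. Ifi207 (array name AI607873) had deposited intensities of 42.6, 46.7 and 52.7 in MC38r, against -1.8, -1.2 and 0 in MC38. Its signal was low but above background on each MC38r array (log2 5.98 ± 0.12 in MC38r and 4.50 ± 0.02 in MC38, limma adjusted p = 1.1e-05), a rise of at least 1.61-fold.

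Ifi213 (array name LOC623121) was the only gene of the cluster with a probe above background on all 6 arrays. Its probe 1090647 had deposited intensities of 115.3, 131.9 and 105.9 in MC38r, against 234.9, 270.9 and 267.6 in MC38. The lines did not overlap, and the level in MC38r was 2.05-fold lower (log2 7.06 ± 0.14 in MC38r and 8.09 ± 0.11 in MC38, difference -1.04, SE 0.14, limma adjusted p = 0.00017). A second probe of Ifi213, 4730246, and the probe of Ifi209 were at background in both lines. In the order of the cluster, the genes that fell are the first (Aim2) and the fourth (Ifi213), and those that rose are the seventh (Ifi207), the tenth (Mndal) and the thirteenth (Ifi202b). Silent probes of Ifi204, Ifi211 and Ifi203 lie among the genes that rose. The members of the cluster share long stretches of sequence, so a probe named for one gene may also read a paralog. The probe sequences were not used here, and how far a signal is shared between paralogs was not tested.

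**Figure D2:**
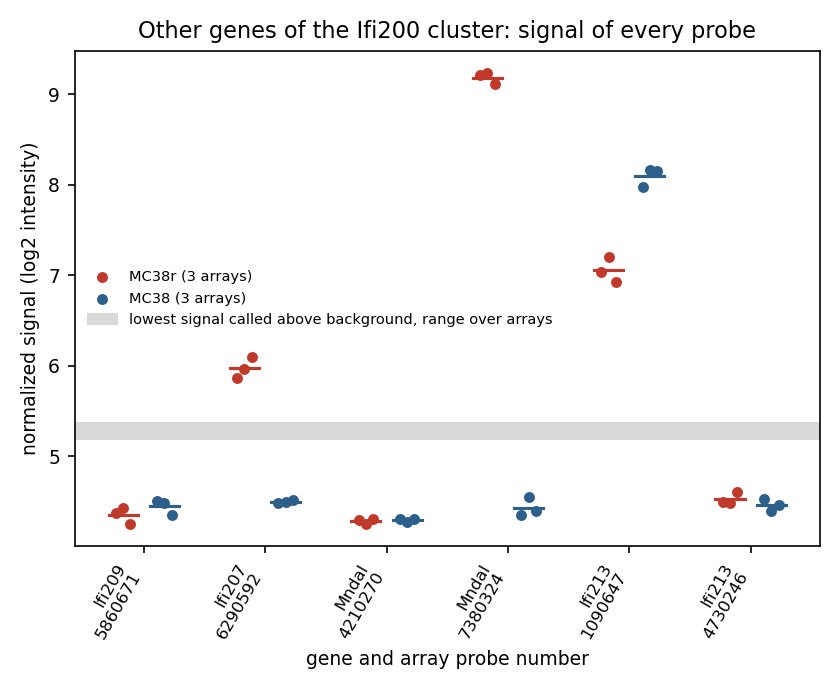
Normalized signal (log2 intensity, vertical axis) of the 6 probes that the array gives for 4 other genes of the cluster, with the 3 MC38r arrays left of the 3 MC38 arrays; bars are means and the grey band spans the dimmest detected signals of the 6 arrays. One probe each of Mndal and Ifi207 lies above the band in MC38r only, and Ifi213 probe 1090647 lies above it in both lines and lower in MC38r.

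**Figure D3:**
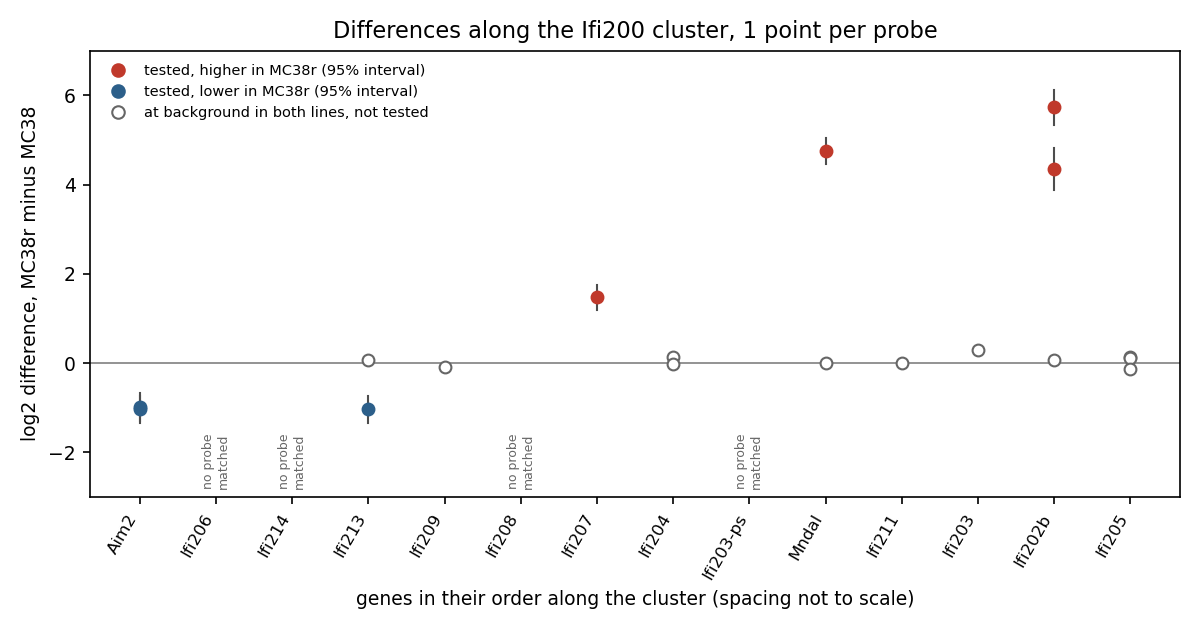
Difference in normalized log2 signal (MC38r minus MC38, vertical axis) of each probe against the place of its gene in the cluster; filled points were tested and carry 95% intervals, and open points were at background in both lines. Differences of -1.04 to -0.98 stand at Aim2 and Ifi213, and differences of 1.48 to 5.73 at Ifi207, Mndal and Ifi202b.

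The measured genes nearest to the cluster on the Aim2 side were Dusp23, 13 protein-coding genes away, and then Tagln2, Pea15a, Pex19 and Copa. Dusp23, a phosphatase, had a log2 difference of -0.12 (adjusted p = 0.51), and of the 5 only Pex19, a factor of peroxisome assembly, passed (-1.30, limma adjusted p = 5.7e-05). On the Ifi205 side, the genes described are Fh1, Cep170 and Zbtb18, which lie 19, 27 and 30 protein-coding genes away. Fh1, the gene of fumarate hydratase, had a difference of -0.08 (adjusted p = 0.75) and the centrosomal gene Cep170 one of -0.13 (adjusted p = 0.44), while the repressor gene Zbtb18 rose (1.29, limma adjusted p = 8.9e-05). The changes of Ifi202b, Mndal and Aim2 were thus not matched by Dusp23 or Fh1.

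Promoter sequences are shown for the 5 genes of the cluster that moved, and for Ifi203, which has a promoter close to one of Mndal and whose probe gave no signal. For Mndal and for Ifi203 the table holds 2 starts each, and the start with the most similar pair of promoters is shown. The promoters run from 250 bases before to 50 bases after the RefSeq start of transcription (GRCm38.p6, 300 bases, written 5′ to 3′ along the gene). Capitals mark matches, on either strand, to 3 motifs: the core of the interferon-stimulated response element (GAAA, any 2 bases, GAAA), the palindromic gamma-activated site bound by STAT dimers (TTCNNNGAA) and the TATA box (TATAAA).
Ifi202b, chr1:173982795-173983094, minus strand: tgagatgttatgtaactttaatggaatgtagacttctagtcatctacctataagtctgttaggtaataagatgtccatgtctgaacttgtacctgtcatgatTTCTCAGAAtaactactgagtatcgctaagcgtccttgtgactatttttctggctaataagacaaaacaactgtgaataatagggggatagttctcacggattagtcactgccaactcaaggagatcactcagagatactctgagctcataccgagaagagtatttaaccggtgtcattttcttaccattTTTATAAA
Aim2, chr1:173420354-173420653, plus strand: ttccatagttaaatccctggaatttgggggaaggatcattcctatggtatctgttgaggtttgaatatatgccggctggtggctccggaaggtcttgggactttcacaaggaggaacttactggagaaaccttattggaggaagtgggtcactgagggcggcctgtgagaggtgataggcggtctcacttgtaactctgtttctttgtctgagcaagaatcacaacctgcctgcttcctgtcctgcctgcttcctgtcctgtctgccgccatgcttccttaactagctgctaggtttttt
Mndal, chr1:173880138-173880437, minus strand: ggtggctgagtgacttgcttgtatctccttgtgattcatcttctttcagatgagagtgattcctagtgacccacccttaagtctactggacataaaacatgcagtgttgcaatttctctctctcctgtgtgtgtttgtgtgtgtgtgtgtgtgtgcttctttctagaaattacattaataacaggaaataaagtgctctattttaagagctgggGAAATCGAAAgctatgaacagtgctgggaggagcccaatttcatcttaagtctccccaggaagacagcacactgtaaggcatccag
Ifi203, chr1:173942443-173942742, minus strand: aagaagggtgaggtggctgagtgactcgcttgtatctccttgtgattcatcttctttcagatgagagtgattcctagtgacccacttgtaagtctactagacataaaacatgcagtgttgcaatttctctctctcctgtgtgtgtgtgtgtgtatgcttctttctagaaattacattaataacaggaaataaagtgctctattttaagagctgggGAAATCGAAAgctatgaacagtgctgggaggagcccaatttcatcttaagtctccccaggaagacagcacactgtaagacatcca
Ifi207, chr1:173741760-173742059, minus strand: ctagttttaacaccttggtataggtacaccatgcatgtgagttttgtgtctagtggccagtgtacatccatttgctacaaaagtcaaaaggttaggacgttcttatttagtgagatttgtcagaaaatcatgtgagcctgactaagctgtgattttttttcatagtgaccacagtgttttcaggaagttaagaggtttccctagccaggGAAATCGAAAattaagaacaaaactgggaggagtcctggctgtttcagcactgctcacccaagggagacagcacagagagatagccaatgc
Ifi213, chr1:173599223-173599522, minus strand: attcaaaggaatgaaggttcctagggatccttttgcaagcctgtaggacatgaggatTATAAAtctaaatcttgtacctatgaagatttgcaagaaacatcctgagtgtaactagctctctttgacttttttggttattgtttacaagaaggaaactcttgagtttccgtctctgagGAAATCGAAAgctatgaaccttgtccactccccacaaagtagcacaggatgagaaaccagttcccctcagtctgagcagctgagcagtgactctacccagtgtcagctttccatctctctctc

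RefSeq promoters were found for 12 of the 14 genes of the cluster and for 5 of the 6 named above. The response element core was present in 9 of the 12 genes, where a gene counts if any of its starts held it. Over all genes it was present in 3.44% of 32851 promoters of the same length, counted per promoter. Several cluster promoters are near copies, such as those of Ifi213 and Ifi208 (89.5% identical), so the 9 are not separate occurrences. Among the 5, the core occurred in Ifi203, Ifi205 and Ifi211, all of which were at background in both lines. Neither Ifi202b nor Aim2 held it in these 300 bases. The letters GAAATCGAAA stood at -36 to -27 from the start in Mndal, at -35 to -26 in Ifi203, at -41 to -32 in Ifi207 and at -73 to -64 in Ifi213, of which Mndal and Ifi207 rose and Ifi213 fell. Ifi202b was the only gene of the 12 with a match to the gamma-activated site, TTCTCAGAA at -148 to -140. The motif was found in 8.3% of all promoters, so 1 gene of 12 is no more than that share would give. TATAAA was found in 7 of the 12 genes, counted in the same way as the core, and in 13.62% of all promoters. In Ifi202b its letters overlap on both strands near the end of the window, after the start. The Mndal and Ifi203 promoters shown were 90.7% identical over 311 aligned columns, whereas the other pairs of their starts were 43.6% to 49.2% identical. The other Ifi203 promoter held no response element core. Those of Ifi207 and Ifi211 were 85.9% identical, and Ifi211 gave no signal in either line. A match is only a run of letters, and whether any of these sequences is bound in MC38r or MC38 cells was not tested.

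By the distance between the 6 normalized log2 signals, each gene centred on its own mean, the named genes nearest to Ifi202b among 9797 were Tmem176b (0.451), a membrane protein gene, Gdf15 (0.556), a stress-induced cytokine gene, and Oas1g (0.578), an interferon-induced 2′-5′ oligoadenylate synthetase gene. Nearest to Aim2 by its brighter probe were Ddr1 (0.105), a collagen receptor gene, Ankmy2 (0.127) and Slc25a12 (0.161), a mitochondrial carrier gene. With 2 lines, such distances reflect mainly the difference between them.

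**Figure D4:**
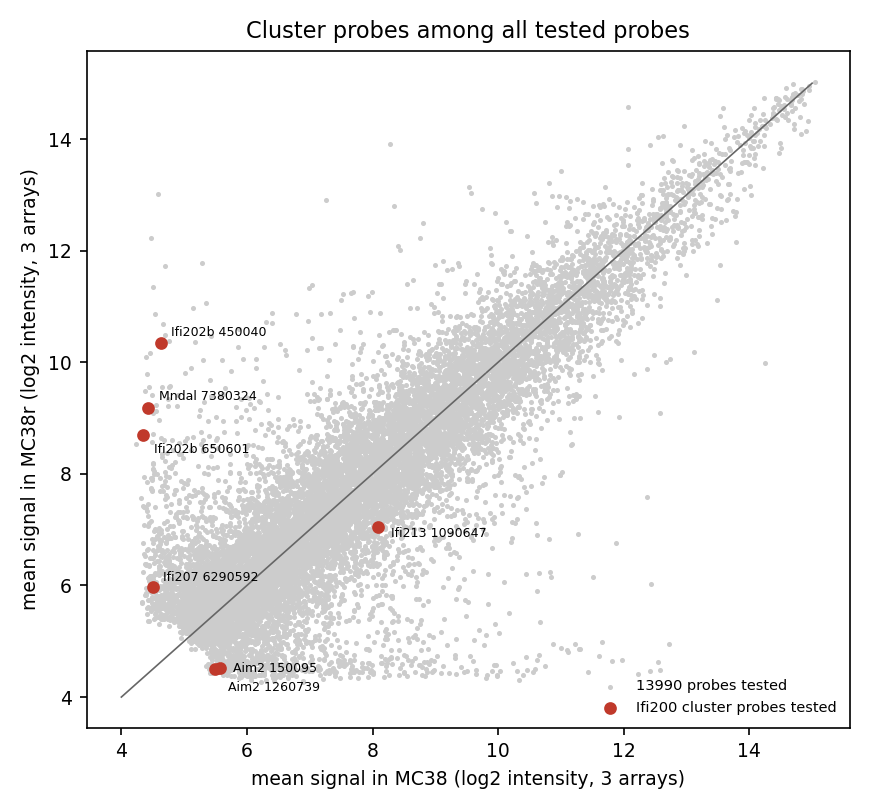
Mean normalized signal in MC38r (log2 intensity, vertical axis) against that in MC38 (horizontal axis) for the 13990 tested probes, with the 7 tested probes of the Ifi200 cluster in red; the line marks equal signals. Ifi202b, Mndal and Ifi207 lie at the left edge, where MC38 is at background, and Aim2 at the lower edge, where MC38r is.

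Genes that act with the Ifi200 proteins were counted in lists. Of 9 measured genes of the Aim2 inflammasome and of pyroptosis, 6 rose, 2 fell and 1 did not pass, with a median log2 difference of 0.49 (median of all 9799 genes 0.028, of which 28.6% rose and 27.4% fell). The count of rises was 4 to 6 when 1 array was left out, and 4 without MC38 replicate 1, MC38 replicate 3 or MC38r replicate 1. Casp1, which Aim2 activates, was 3.35-fold higher in MC38r (log2 difference 1.75, SE 0.16, limma adjusted p = 1.9e-05). Casp4, the caspase of the non-canonical inflammasome, differed by 1.87 and Irf2, a transcription factor that controls gasdermin D, by 1.14. Gsdmd itself differed by 0.35 (limma adjusted p = 0.044), a call that was lost when any array other than MC38r replicate 2 was left out (adjusted p between 0.052 and 0.13). The genes that fell were Casp8 (-0.60) and Ripk3 (at least 1.31-fold lower), both of death receptor pathways. Pycard, Il1b, Il1a, Nlrp3 and Nlrc4 were among the 8 genes above background on no array, so the adaptor that joins Aim2 to caspase-1 was not detectable in either line. Zbp1, another nucleic acid sensor, had a difference of 0.06 (adjusted p = 0.86), whose sign turned without MC38 replicate 2 (-0.192) or MC38r replicate 3 (-0.101).

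Of 19 measured genes of cytosolic DNA sensing and DNA clearance, 8 rose, 4 fell and 7 did not pass (median 0.14), where 56.1% of all genes passed, a share that the list comes close to. Nlrc3, a negative regulator of Sting1, rose by 1.98 and Adar, an RNA editing enzyme, by 1.66, and Rnaseh2c, a subunit of ribonuclease H2, fell by 1.93 on the log2 scale. Cgas, the enzyme that senses DNA upstream of Sting1, rose by 0.65 by its brightest probe (limma adjusted p = 0.012). The call was lost without MC38r replicate 2 (limma adjusted p = 0.051). With the mean of all its tested probes it was lost as well (0.293, limma adjusted p = 0.091). Sting1 had a difference of -0.03 (adjusted p = 0.87). Dnase2a, which degrades DNA in lysosomes, had a difference of -0.37 (adjusted p = 0.051; 0.047 without MC38 replicate 2), and the kinase gene Tbk1 one of -0.20 (adjusted p = 0.32).

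Interferon signalling genes were mostly higher in MC38r. Of 14 measured receptors, kinases, factors and regulators, 9 rose, 0 fell and 5 did not pass (median 0.97). Usp18, which damps the receptor, rose by 6.50 and Irf9, the DNA-binding part of the factor that acts at the response element, by 3.11 on the log2 scale, and Irf7 rose by at least 6.94-fold. Ifngr1 (-0.45, adjusted p = 0.077) and Ifngr2 (0.34, adjusted p = 0.2) did not pass, although without MC38 replicate 2 Ifngr1 fell (-0.625, limma adjusted p = 0.013), which takes the count of falls to 1. A further 9 genes of this list were above background on no array. These were the ligand genes Ifnb1, Ifng, Ifna2 and Ifnk, and also Ifnar1, Il10rb, Jak1, Irf8 and Socs1. Of 34 measured interferon-stimulated genes, 30 rose, 2 fell and 2 did not pass (median 2.39), against 28.6% and 27.4% of all genes. Some of them were above background in only 1 line: for example Oas2, Mx2 and Dhx58 in MC38r, like Irf7 above, and Psmb9 in MC38. For such genes passing the filter already required a difference, and the same filter applied to all genes. Oas1g rose by 5.71 and Oasl2 by 4.43 on the log2 scale, and Oas2 rose by at least 15.3-fold, all of the 2′-5′ oligoadenylate synthetase family. Psmb9, an immunoproteasome subunit gene, fell by at least 2.14-fold and the GTPase gene Gbp2 by 0.55 on the log2 scale, and Gbp2 lost its call without MC38 replicate 1 (-0.493, adjusted p = 0.05) or MC38r replicate 2 (-0.487, adjusted p = 0.052). Trim25 (0.38, adjusted p = 0.07) and Ifit2 (0.09, adjusted p = 0.61) did not pass, and Trim25 passed without MC38 replicate 3 or without MC38r replicate 1. A further 8 genes of the list, among them Ifit1, Ifi44, Mx1 and Ifih1, were above background on no array, so interferon-inducible genes without signal were not limited to the Ifi200 cluster.

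Of 17 measured genes whose proteins p202 or p204 are known to bind or control in mice, 3 rose, 6 fell and 8 did not pass (median -0.18), again close to the 56.1% of all genes that passed. The transcription factor gene Tfap2a (-1.43) and Id2 (-1.20), which blocks helix-loop-helix factors, fell, and Rbl1, the gene of the retinoblastoma relative p107, rose by 1.31. The Id2 probe was above background on only 1 MC38r array. Its difference was -0.912 with the mean of all tested probes and -0.277 with the deposited series values, and Id2 still passed in both. Trp53, whose protein p202 can restrain, rose by 0.68 (limma adjusted p = 0.0037). E2f4 (0.41, adjusted p = 0.25) and Trp53bp1 (-0.40, adjusted p = 0.16) did not pass; without MC38 replicate 2, E2f4 rose (0.718, limma adjusted p = 0.022) and Trp53bp1 fell (-0.631, limma adjusted p = 0.013).

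**Figure D5:**
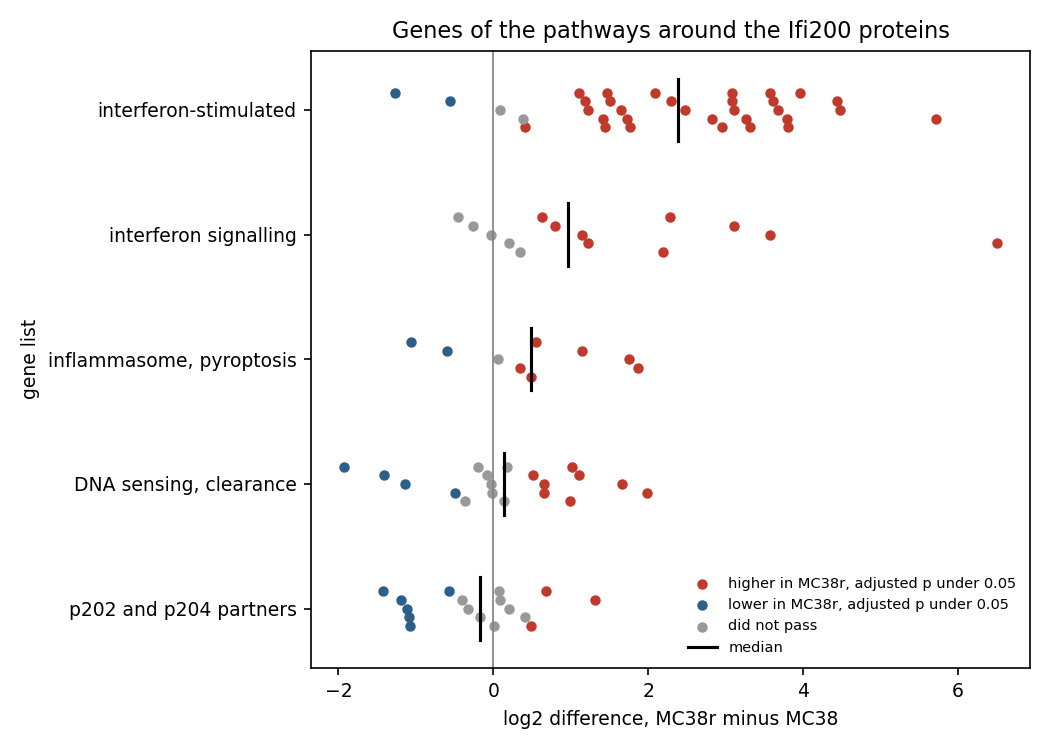
Difference in normalized log2 signal (MC38r minus MC38, horizontal axis) of each measured gene in 5 lists; red points rose and blue points fell at an adjusted p under 0.05, grey points did not pass, and bars mark the medians. The median of the interferon-stimulated genes is 2.39 and those of the other lists lie between -0.18 and 0.97.

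The Ifi200 genes are expressed in macrophages and lymphocytes, so markers of these cells were read on the same arrays. Of 13 macrophage and myeloid markers, Cd68 and Cd14 were tested, and 9, among them Ptprc, Adgre1, Csf1r, Itgam and Tyrobp, were above background on no array. Their summed signal was 528.9 to 534.4 in MC38r and 473.5 to 500.2 in MC38. Of 11 lymphocyte markers on the array, Cd8b1 (which fell) and Lck (which rose) were tested, 9 including Cd3e and Cd4 were above background on no array, and the sum was 961.7 to 1339 in MC38r and 1666 to 1981 in MC38. Cd8b1, a T cell coreceptor chain gene, had a log2 signal of 9.70 ± 0.3 in MC38r and 10.63 ± 0.14 in MC38. The lymphocyte sum therefore rests mainly on Cd8b1. The T cell kinase gene Lck stood at 5.59 ± 0.21 in MC38r and 4.78 ± 0.2 in MC38, where it was above background on no array. Of the tested myeloid markers, Cd14 rose (7.71 ± 0.025 in MC38r and 7.28 ± 0.091 in MC38). Cd68 fell (5.17 ± 0.14 in MC38r and 5.81 ± 0.16 in MC38, limma adjusted p = 0.0042). The part of these markers in the family values was not tested. Of 10 fibroblast and mesenchymal markers 8 were tested, 2 (Pdgfra and Dcn) rose and 5 fell, and their sum was 4159 to 4240 in MC38r and 16430 to 19500 in MC38. The brightest of the 8 in MC38 were Vim (log2 11.74 ± 0.02 in MC38r and 13.53 ± 0.13 in MC38) and Acta2 (6.025 ± 0.28 in MC38r and 12.44 ± 0.13 in MC38). Both fell, and a sum on the linear scale rests mainly on such bright genes. The part of the difference in this sum was not tested either.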

How the data were processed

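RNA of 3 arrays each of MC38r and MC38 was measured on mouse bead arrays. The deposited probe values are linear intensity, quantile-normalized by GenomeStudio 1.9.0 per the file headers, and already background-subtracted, as values under 0 show. The deposited detection values are a score, 1 minus the detection p-value. The deposited comparison table gives a ratio (fold change), its log2 value and p-values, and its test is not stated. The deposited series values are intensity on a linear scale at gene level.

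Signals went through limma 3.58.1 in R 4.3.3: normexp background correction with detection p-values (nec, offset 16), log2 and quantile normalization. The design had assumed raw signals. The filter kept the 13990 probes whose detection p was below 0.01 on 3 or more arrays. The lines were compared with lmFit and eBayes, with group as the only term and Benjamini-Hochberg adjustment over all kept probes, at 0.05. The family rule keeps probes apart, and for gene lists the brightest kept probe stood for a gene. Where a line was at background on every array, folds are bounds. The number of arrays limits the precision (median SE 0.16 on the log2 scale). On simulated data with 200 changed probes among 13990, 76% of changes of 1 and 98% of changes of 2 (log2) were recovered. In the data 7713 probes passed, so the adjustment worked under another share of changed probes and these rates need not hold there.

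Array names were matched to RefSeq symbols (22775 of 30854). The genes named are all family genes, up to 3 genes past the threshold and 2 not past it from each list by size of change, the 3 named genes nearest in pattern and 5 flanking genes a side; some genes that this rule names are not reported here, and other genes were named after their values were seen. The members and lists were chosen with earlier results of these data known. Alternatives covered background correction, offset, normalization, filter, probe choice, variance model, array weights, a replicate block and each array left out; leaving out both arrays that deviate together was added after seeing the data.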

Additional observations from a re-analysis of the deposited data

How the results depend on the processing

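Across 16 alternatives, the counts of rising and falling family probes and the tested probes of Ifi202b, Aim2, Mndal, Ifi207 and Ifi213 (144 values) all kept their direction and their side of the threshold. The size of the change depended on how signals near background were treated. With an offset of 50 the log2 differences were 4.51 and 3.05 for Ifi202b, -0.51 and -0.48 for Aim2, 3.47 for Mndal and 0.78 for Ifi207. With signals under 16 set to 16 the Ifi202b differences were 6.34 and 4.65. With the deposited series values at gene level the difference was 4.29 for Ifi202b and -0.965 for Aim2. Leaving out each array in turn gave 5.62 to 5.90 and 4.10 to 4.53 for Ifi202b, and -1.11 to -0.999 and -1.04 to -0.875 for Aim2.

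Replicate numbers did not pair the arrays: the deviations of same-numbered arrays correlated at -0.465, -0.437 and 0.303, and MC38r replicate 1 with MC38 replicate 2 at 0.617. With the replicate block, Ifi202b kept 5.73 (adjusted p = 2.1e-06) and Aim2 -1.04 (adjusted p = 0.0013), and 3518 probes rose and 3369 fell, against 3937 and 3776 without it. Among list genes, Gsdmd (adjusted p = 0.1) and Irgm1 (adjusted p = 0.086) lost their calls with the block.

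Among the lists, the count of interferon signalling genes that fell was 0, but 1 with array weights, without MC38 replicate 2 and without both arrays that deviate together; leaving out 1 array gave 0 to 1. The count of interferon-stimulated genes that fell was 2, but 1 to 2 with 1 array left out. Zbp1 turned to -0.037 with array weights, -0.192 without MC38 replicate 2, -0.101 without MC38r replicate 3 and -0.027 without both arrays, and lay between -0.192 and 0.237 when 1 array was left out. Of 72 list genes that passed, 8 lost their call under at least 1 alternative (Cgas, Gbp2, Gsdmd, Irgm1, Jun, Nfkb1, Ninj1 and Trex1), 7 of them with 1 array left out, and the rises in the inflammasome list were then 4 to 6. Dnase2a, E2f4, Ifngr1, Trim25 and Trp53bp1 passed under some alternatives. The cause was not tested. Family signals at background carry no order, and folds against them are bounds.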

Other observations

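The family genes that moved differ in how evenly their arrays agree. On the log2 scale the SD over the 3 MC38r arrays was 0.067 for Mndal, 0.12 for Ifi207, 0.14 for Ifi213, and 0.19 and 0.44 for the rising Ifi202b probes. MC38r replicate 1 was highest for both Ifi202b probes and was not highest for Mndal, Ifi207 or Ifi213. The authors' deposited table lists Mndal with a ratio of 13.4 and an adjusted p of 0.0253, Ifi207 with 2.50 and 0.0495, and Ifi213 with 0.572 and 0.0343, each under 0.05, whereas IFI202B, with the largest ratio of the cluster in the authors' deposited table, has an adjusted p of 0.1053 there.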
